A study of Rattus norvegicus with 10 samples.

Results

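The genes described here encode the subunits of oxidative phosphorylation, the respiratory chain and ATP synthase of the inner mitochondrial membrane, together with a few of their assembly and regulatory factors. They were chosen by name alone: a probe of the array belonged when the current rat symbol of its gene began with Nduf, Uqcr, Atp5, Cox4, Cox5, Cox6, Cox7 or Cox8, or was Sdha, Sdhb, Sdhc, Sdhd, Cyc1 or Cycs. This gave 94 probes of 80 genes among the 13832 named genes of the array, and 74 of the 80 were tested, having a probe well above background on 5 or more of the 10 arrays. The 6 others (Ndufs4, Uqcrq, Cox6b2, Cox8b, Cox8c and the pseudogene Cox6c-ps1) were above background on 0 arrays and get no value, and Cyc1 had no named probe here. By role, the 80 genes were 30 subunits of complex I, 5 complex I assembly factors, 4 subunits of complex II, 8 of complex III, 15 of complex IV and 14 of complex V, with 4 placed apart. The 4 are Cycs, Atp5if1, Cox7a2l and Cox6c-ps1. Ndufa4 was counted with complex IV, where its protein is found, despite its name.

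Liver RNA of 10 male Wistar rats was hybridised, 1 rat per array, to Agilent oligonucleotide arrays in 1 colour. The 5 control rats had received vehicle only. The 5 DEN/TAA rats had received 1 intraperitoneal dose of 200 mg/kg diethylnitrosamine (DEN), a liver carcinogen that alkylates DNA, when 6 weeks old. Thioacetamide (TAA), a toxin that scars the liver, followed after 2 weeks at 200 mg/kg, injected in cycles of 3 weeks with injections and 1 week without. The labels give both a treatment of 23 weeks and an age of 23 weeks for all rats, so the exact duration is not settled. The labels name no genotype beyond the strain. The RNA came from frozen liver, with no word on whether nodules or the liver around them were sampled. Arrays lay on 3 slides: slide 1 held rats 1 and 2 of both groups, slide 2 control rat 3 and DEN/TAA rats 3 and 4, and slide 3 control rats 4 and 5 and DEN/TAA rat 5.

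Complexes I and II pass electrons from NADH and succinate to ubiquinone, complex III passes them on to cytochrome c, and complex IV passes them to oxygen. Complexes I, III and IV pump protons, and complex V, the ATP synthase, uses the returning protons to make ATP. Hepatocytes are rich in mitochondria and depend on this pathway for urea synthesis, gluconeogenesis and the oxidation of fatty acids. All genes named here lie in the nucleus; the subunits encoded by mitochondrial DNA carry other names and are outside the rule.

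The genes of the 5 complexes leaned downward in DEN/TAA liver, while the ATP synthase inhibitor Atp5if1 and the complex I assembly factors Ndufaf4, Ndufaf1 and Ndufaf5 rose. Levels are log2 signal relative to the 75th percentile of each array's probes that were above background on all 10 arrays, so 0 is as bright as that percentile, and each difference is the DEN/TAA mean minus the control mean. A gene was called when its adjusted p in limma, over all 6854 genes tested, was under 0.05. Of the 74 members, 5 were higher, 16 were lower and 53 did not pass. The share called higher was 6.76%, against 39.2% of all genes tested, and the share called lower was 21.6%, near the 16.3% of all genes. The median difference was -0.22 over the members and 0.33 over all genes, and 66 of the 74 members lay below the median gene. The filter can raise the values of all genes, since a gene dim in control rats may pass through the DEN/TAA rats alone. Of the members, 70 were above background on all 10 arrays. With only genes above background on all 10 arrays, the medians were -0.25 over the members and 0.10 over all genes. Among the 66 subunits of complexes I to V, 0 were higher, 16 were lower, 53 had a difference below 0 and 65 lay below the median gene, the exception being Sdhc. The groups of 5 rats did not overlap for 18 members (24.3%), 5 higher and 13 lower, against 39.5% of all genes.

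Each complex had its own spread within this pattern. The median difference was -0.28 in complex I (29 tested), -0.19 in complex II (4), -0.04 in complex III (7), -0.25 in complex IV (12) and -0.31 in complex V (14). Calls followed a different order: 10 of 29 genes were lower in complex I, 1 of 4 in complex II, 0 of 7 in complex III, 2 of 12 in complex IV and 3 of 14 in complex V, with 0 higher in each. The 5 complex I assembly factors named Ndufaf had a median of 0.81, with 3 higher and 0 lower, against 39.2% and 16.3% of all genes. Assembly factors with other names are given with the pathway lists below.

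**Figure D1:**
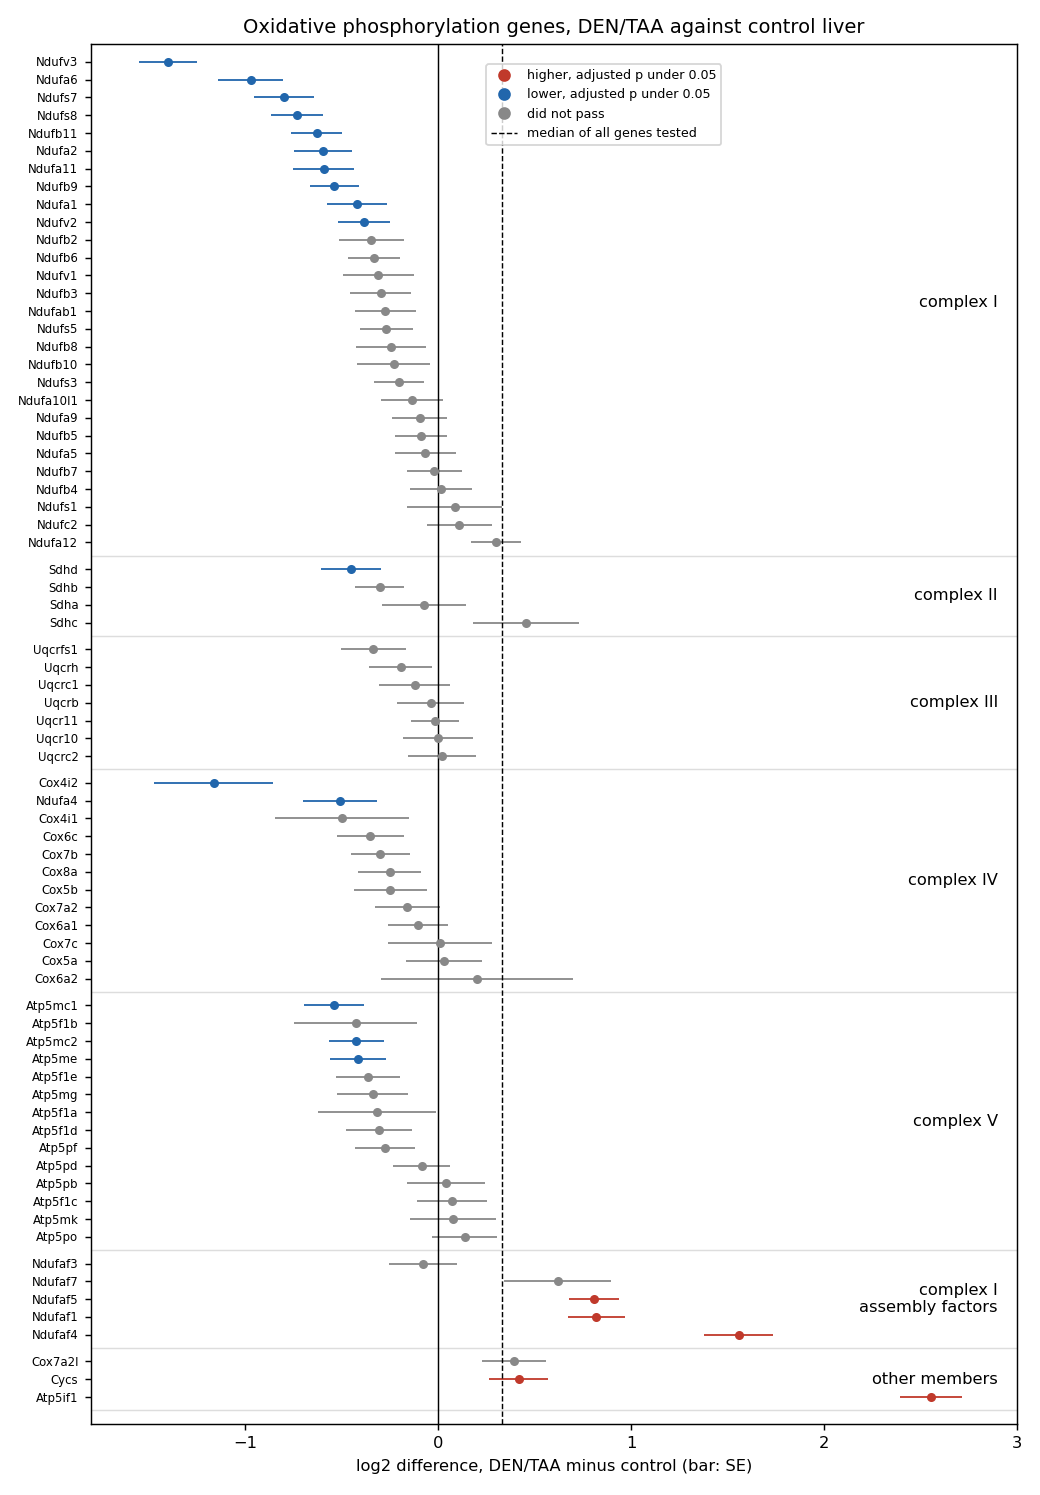
Log2 difference (DEN/TAA minus control, bar for 1 SE) of 73 of the 74 tested genes on the horizontal axis, grouped by complex, with the solid line at 0 and the dashed line at the median of all genes tested (0.33). All subunits shown but Sdhc lie left of the dashed line, and Atp5if1 (2.55) and Ndufaf4 (1.56) lie farthest to the right.

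The scale on which these differences are read matters, because the arrays of the groups differed as a whole. Between 16.5% and 32.9% of spots were well above background on control arrays and between 36.1% and 46.6% on DEN/TAA arrays, and no spot was saturated. The spike-ins, foreign RNA put into each sample at labelling, were at 13.06 ± 0.45 in control and 13.88 ± 0.18 in DEN/TAA (log2 mean of the 5 brightest probes, SD, n = 5 each). Centring on those spike-ins instead turned most signs: 25 members were then higher and 1 lower, against 64.8% and 5.78% of all genes, with medians of 0.44 for members and 0.99 for all genes. Centring each array on the median of the genes tested gave 4 higher and 48 lower members, against 22.0% and 26.8% of all genes, with medians of -0.60 and -0.05. With the percentile over all probes, 4 members were higher and 38 lower (23.6% and 23.3% of all genes). The distance of the members from all genes, -0.55, was the same in these 3 and in the scaling used here, since each of the 4 adds 1 number per array.

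The 3 other ways of making the values could change that distance, and did. With quantile normalisation 6 members were higher and 12 lower (28.3% and 19.7%), at a distance of -0.35. In the authors' deposited table, whose ranks are those of signal without background subtraction, 7 were higher and 17 lower (29.7% and 19.2%). There the distance was -0.19, and 51 members lay below the median gene. With normexp background correction, 4 were higher and 12 lower (12.9% and 28.4%), the distance was 0.08, and 28 members lay below the median gene. The members' median thus lay under that of all genes in 2 of these 3 and above it with normexp. Without a filter on dim probes it was -0.25 against -0.50 for all 13832 genes, and with genes above background on all 10 arrays only it was -0.25 against 0.10. Of the 21 called members, Atp5if1, Ndufaf4, Ndufaf5 and Ndufv3 passed in the same direction in all 7 scalings, and 9 kept their sign in all 7.

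**Figure D2:**
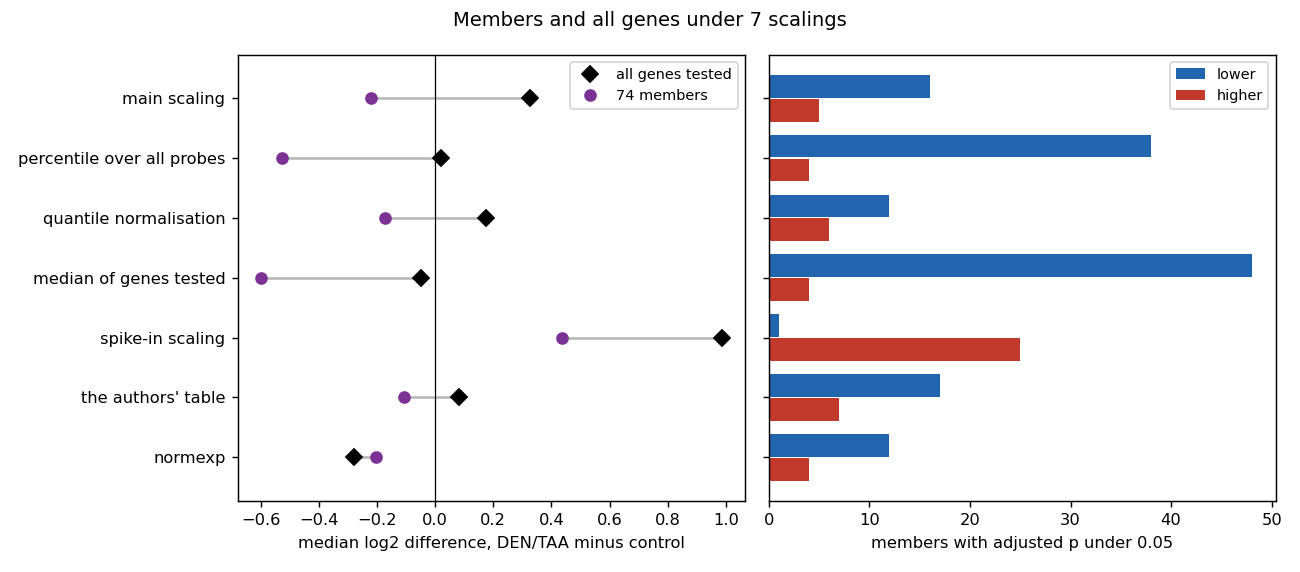
Left, median log2 difference (DEN/TAA minus control) of the 74 members (circles) and of all 6854 genes tested (diamonds) under 7 scalings; right, number of members called lower (blue) and higher (red). The members sit left of all genes except with normexp, and their calls run from 48 lower with the median of genes tested to 25 higher with spike-in scaling.

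Markers of the liver's cell types moved between the groups as well. All 11 hepatocyte markers were above background on all 10 arrays, which matches the labelled tissue. Their mean level was 5.31 to 5.87 in control rats and 4.41 to 4.74 in DEN/TAA rats, and 10 of the 11 were lower, but 4 were lower and 1 higher with quantile normalisation, 3 lower and 1 higher with spike-in scaling, and 4 lower and 2 higher in the authors' deposited table. Macrophage markers rose from between -4.42 and -3.33 to between -1.83 and -1.37 (7 of 9 higher, 1 lower), and stellate cell and myofibroblast markers from between -3.89 and -3.54 to between -2.02 and -1.41 (8 of 10 higher), counting those bright enough to test. Trem2, Gpnmb, Cybb, Spp1, Cd163, Krt19, Cd3g, Nkg7 and Zap70 did not reach above background in any control rat, so they passed the filter through the DEN/TAA rats alone, and a higher value there is partly set by that filter. These include all 3 lymphocyte markers tested of 8 listed and 2 of the 3 biliary markers tested of 7 listed, and the third, Epcam, was higher by 2.67 (SE 0.23, limma adjusted p = 3.37e-06). With normexp 0 of the 3 lymphocyte markers passed. The part of these markers in the results on the respiratory chain was not tested. In RNA from whole liver, fewer cells of a type and less RNA per cell cannot be told apart.

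Atp5if1, the inhibitory factor that binds the F1 part of ATP synthase and blocks ATP hydrolysis when the proton gradient fails, had the largest difference of all 74 members. Its level was -1.18, -0.80, -0.60, -0.93 and -0.86 in control rats 1 to 5 and 1.80, 1.57, 1.91, 1.77 and 1.34 in DEN/TAA rats 1 to 5. Each DEN/TAA rat lay above each control rat, with a gap between the groups several times the spread within either. The difference was 2.55 (SE 0.16, limma adjusted p = 6.39e-07), or 5.87-fold. It was between 2.18 and 3.21 in the 7 scalings and 2.67, 2.44 and 2.23 within slides 1, 2 and 3. While this inhibitor rose, 0 of the 14 subunits of the synthase itself were higher on the scale used here. With spike-in scaling 5 of the 14 were higher and 0 lower, at a median of 0.35. Of the 14, 1 was higher and 1 lower in the authors' deposited table, and 0 were higher in the remaining scalings.

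Among the complex I assembly factors, which help build the enzyme and are absent from the finished complex, Ndufaf4 rose furthest. Ndufaf4, which acts on the ubiquinone-binding module, was at -3.20, -2.90, -2.33, -2.83 and -2.72 in control rats 1 to 5 and -1.26, -1.25, -1.51, -0.996 and -1.17 in DEN/TAA rats 1 to 5. No control rat reached a DEN/TAA rat, and control rat 3 was the highest of its group. The difference was 1.56 (SE 0.18, limma adjusted p = 2.79e-05), or 2.94-fold, and its 3 probes gave 1.56, 2.25 and 1.49, above background on 5, 1 and 0 of the 5 control arrays.

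Ndufaf5, an enzyme that hydroxylates an arginine of the core subunit Ndufs7, was at -2.49, -2.27, -2.33, -2.36 and -2.12 in control rats 1 to 5 and -1.51, -1.39, -1.60, -1.60 and -1.44 in DEN/TAA rats 1 to 5. The groups were well apart, at 0.81 (SE 0.13, limma adjusted p = 3.12e-04). Ndufaf1, a part of the assembly complex for the membrane arm, was at -4.47, -4.70, -4.33, -4.57 and -4.10 in control rats 1 to 5 and -3.42, -3.66, -3.70, -3.68 and -3.61 in DEN/TAA rats 1 to 5 and differed by 0.82 (SE 0.15, limma adjusted p = 7.30e-04). It was dim, above background on 4 of 5 control arrays, and its difference was -0.05 with normexp, so its rise rests on how the background is treated. Ndufaf7, a methyltransferase, differed by 0.62 (SE 0.28, limma adjusted p = 0.0768) with 1 of 5 control arrays above background. Ndufaf3, the partner of Ndufaf4 in assembly, differed by -0.08 (SE 0.17, limma adjusted p = 0.718). The mean level of the 5 factors was -3.71 to -3.40 in control rats and -2.92 to -2.69 in DEN/TAA rats. This mean includes Ndufaf1 and Ndufaf7, which were dim in control rats. The median difference of the 5 was -0.05 with normexp and between 0.22 and 1.47 in the other scalings. The gap between the groups thus depends in part on how the background is treated.

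The promoters of Atp5if1, Ndufaf4 and Ndufaf5, the members called higher in all 7 scalings, are shown so that their DNA can be set beside that rise. Each is the 200 bases before the annotated start from RefSeq, assembly GRCr8, 5′ to 3′ on the gene's strand: Atp5if1 at chr5:150026678-150026877, minus strand; Ndufaf4 at chr5:43401595-43401794, plus strand; Ndufaf5 at chr3:147961412-147961611, plus strand. Capitals mark matches to the motifs searched.
Atp5if1: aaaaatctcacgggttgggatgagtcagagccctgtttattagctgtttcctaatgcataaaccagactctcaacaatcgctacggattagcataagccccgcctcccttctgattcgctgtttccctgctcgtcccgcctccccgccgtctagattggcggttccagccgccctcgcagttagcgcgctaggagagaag
Ndufaf4: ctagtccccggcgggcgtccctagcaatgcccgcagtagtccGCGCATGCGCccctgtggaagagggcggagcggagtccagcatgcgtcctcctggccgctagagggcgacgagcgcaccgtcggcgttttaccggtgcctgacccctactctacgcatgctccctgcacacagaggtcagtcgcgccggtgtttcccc
Ndufaf5: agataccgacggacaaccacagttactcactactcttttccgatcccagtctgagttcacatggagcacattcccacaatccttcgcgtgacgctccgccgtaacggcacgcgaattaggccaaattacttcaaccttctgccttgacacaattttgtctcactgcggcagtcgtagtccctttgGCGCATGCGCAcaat
The motifs were those of factors known to bind promoters of respiratory chain genes, on both strands: the 10-letter palindrome of NRF1 (GCGCA joined to its reverse complement), the 6 letters TGCGCA, which overlap that palindrome when an A follows it or a T precedes it, CCGGAAG (ETS factors such as GABP), AAGATGGC (YY1) and TCAAGGTCA (ERRA). The capitals in Ndufaf4 are the NRF1 palindrome, from base -158 to base -149, and those in Ndufaf5 are the palindrome from -15 to -6 with TGCGCA from -10 to -5. In Atp5if1 none of these letters was found in the window.

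Of the 80 genes, 70 matched a promoter in the table, here 300 bases from 250 before to 50 after the start. The NRF1 palindrome was in 6 of them (8.57%), against 0.932% of all 27457 promoters and 2.04% of the 5681 promoters of genes tested. For TGCGCA the shares were 30.0% of members, 7.68% of all and 14.4% of tested genes, and for CCGGAAG 30.0%, 9.22% and 20.2%. AAGATGGC was in 17.1% of members, 3.44% of all and 5.51% of tested genes, and TCAAGGTCA in 1 member. The palindrome was in 2 of the 5 promoters of called-higher members and in 3 of the 14 of called-lower ones that had a promoter. A match describes the letters of the window, not a bound site.

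Cycs, somatic cytochrome c, which carries electrons from complex III to complex IV, was at 0.70, 0.88, 1.05, 1.35 and 1.102 in control rats 1 to 5 and 1.41, 1.36, 1.27, 1.51 and 1.61 in DEN/TAA rats 1 to 5. Control rat 4 lay above DEN/TAA rat 3, and the other control rats were below all DEN/TAA rats. The difference was 0.42 (SE 0.15, limma adjusted p = 0.0383), and the 3 probes gave 0.42, 0.38 and 0.32. The call was kept without control rat 4 (adjusted p = 0.0189), control rat 5 (0.0410) or DEN/TAA rat 3 (0.0446) and lost in the 7 other fits that left out 1 rat, with an adjusted p between 0.0589 and 0.0803, and the difference was 0.09 above that of the median gene. Cox7a2l, which helps join complexes III and IV into supercomplexes, differed by 0.39 (SE 0.17, limma adjusted p = 0.0642).

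Complex I, the NADH dehydrogenase, held 10 of the 16 falls on the scale used here, and 29 of the 66 tested subunits. Centred on the median gene, 24 of 29 were lower in complex I, against 26.8% of all genes. Complexes II to V then had 2 of 4, 4 of 7, 9 of 12 and 8 of 14 lower. On the scale used here, the 7 tested core subunits of complex I, which carry the flavin and iron-sulfur clusters, had 3 lower. Its 22 tested accessory subunits had 7 lower. Ndufv3, an accessory subunit at the tip where NADH is oxidised, was at 0.83, 0.66, 0.68, 0.42 and 0.63 in control rats 1 to 5 and -0.58, -0.76, -0.79, -1.11 and -0.54 in DEN/TAA rats 1 to 5. All DEN/TAA rats were below all control rats, by at least as much as the control rats spanned. The difference was -1.40 (SE 0.15, limma adjusted p = 1.96e-05), 2.64-fold lower, and it remained below 0 in the 7 scalings, from -1.78 to -0.74.

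Ndufa6, an accessory subunit of the peripheral arm that holds an acyl carrier protein, was at 2.64, 3.32, 3.40, 3.12 and 3.45 in control rats 1 to 5 and 2.25, 2.20, 2.22, 2.16 and 2.23 in DEN/TAA rats 1 to 5. The DEN/TAA rats were nearly level with each other and all were below the control rats, of which control rat 1 was the lowest. The difference was -0.97 (SE 0.17, limma adjusted p = 5.15e-04), 1.96-fold lower, and -0.31 with spike-in scaling (adjusted p = 0.227).

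Ndufs7 and Ndufs8 are core subunits whose iron-sulfur clusters hand electrons on towards ubiquinone. Ndufs7 was at 1.79, 2.19, 1.94, 1.91 and 2.30 in control rats 1 to 5 and 1.05, 1.02, 1.34, 1.27 and 1.45 in DEN/TAA rats 1 to 5. Ndufs8 was at -1.31, -1.54, -1.45, -1.25 and -1.62 in control rats 1 to 5 and -2.03, -2.32, -2.20, -2.22 and -2.06 in DEN/TAA rats 1 to 5. For both genes all DEN/TAA rats lay below all control rats. The differences were -0.80 (SE 0.15, limma adjusted p = 0.00107) for Ndufs7 and -0.73 (SE 0.14, limma adjusted p = 8.20e-04) for Ndufs8, whose second probe gave -0.74. With spike-in scaling they were -0.14 and -0.07, neither called.

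The promoters of Ndufv3 and Ndufa6, the furthest falls of complex I, are shown for comparison with those above, in the same form: Ndufv3 at chr20:9613586-9613785, plus strand; Ndufa6 at chr7:115750318-115750517, minus strand.
Ndufv3: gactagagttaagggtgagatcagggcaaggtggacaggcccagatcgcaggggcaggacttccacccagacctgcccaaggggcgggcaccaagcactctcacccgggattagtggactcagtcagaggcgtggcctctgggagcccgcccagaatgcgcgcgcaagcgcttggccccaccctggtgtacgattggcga
Ndufa6: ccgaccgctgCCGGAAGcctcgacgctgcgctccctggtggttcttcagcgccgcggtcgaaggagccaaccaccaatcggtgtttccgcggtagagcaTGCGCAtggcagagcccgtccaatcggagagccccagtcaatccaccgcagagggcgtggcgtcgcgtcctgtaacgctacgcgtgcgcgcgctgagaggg
In Ndufa6 the capitals are CCGGAAG from -190 to -184 and TGCGCA from -101 to -96, and AAGATGGC began at base 15 after the start. None of the motifs was found in the Ndufv3 window.

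The other 6 lower subunits of complex I were Ndufb11 (-0.63), Ndufa2 (-0.60), Ndufa11 (-0.59), Ndufb9 (-0.54), Ndufa1 (-0.42) and Ndufv2 (-0.39). With spike-in scaling the differences of all 6 were above 0 and not called, from 0.03 for Ndufb11 to 0.27 for Ndufv2. Ndufa1, a small subunit of the membrane arm, and Ndufv2, the core subunit beside the flavin site, were called in 2 and 6 of the 10 fits without 1 rat. Ndufa1 passed without control rat 1 or 4 (adjusted p = 0.0108 and 0.0475) and otherwise had 0.0529 to 0.0806, and Ndufv2 was lost without control rat 4 or DEN/TAA rats 2, 3 or 4 (0.0513 to 0.0720). The 19 complex I subunits that did not pass ran from -0.35 to 0.30, with a median of -0.20. Ndufa12 at 0.30 (adjusted p = 0.0689) and Ndufb6 at -0.33 (adjusted p = 0.0543) had groups without overlap but missed the threshold. The range over the complex was thus wide, from Ndufv3 to Ndufa12, although its proteins work in 1 assembly.

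**Figure D3:**
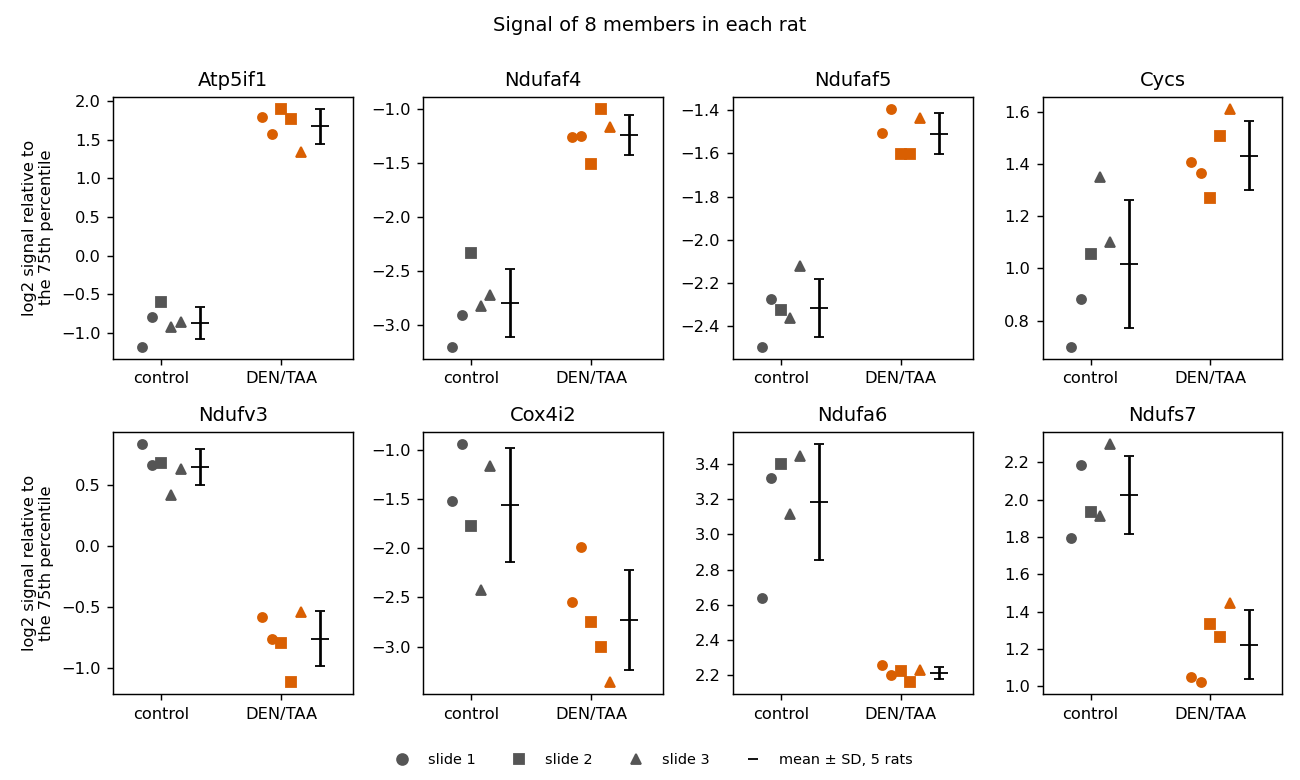
Level (log2 signal relative to the 75th percentile) of 8 members in each of the 5 control and 5 DEN/TAA rats, marker shape giving the slide, with mean ± SD beside each group. Atp5if1, Ndufaf4 and Ndufaf5 are higher and Ndufv3, Ndufa6 and Ndufs7 lower in each DEN/TAA rat than in any control rat, while the groups overlap for Cycs and Cox4i2.

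Complex II, succinate dehydrogenase, also belongs to the citric acid cycle, and its 4 genes spread to both sides. The flavoprotein Sdha differed by -0.07 (SE 0.22, limma adjusted p = 0.798) and the iron-sulfur protein Sdhb by -0.30 (SE 0.13, limma adjusted p = 0.0602). Sdhd, a membrane anchor, was at 1.11, 1.49, 1.76, 1.46 and 1.69 in control rats 1 to 5 and 1.13, 0.85, 1.12, 1.11 and 1.04 in DEN/TAA rats 1 to 5. The lowest control rat lay within the DEN/TAA range and the other control rats above it, and the difference was -0.45 (SE 0.15, limma adjusted p = 0.0267). Its partner in the membrane, Sdhc, was at -1.001, -0.40, 0.20, 0.23 and -0.09 in control rats 1 to 5 and 0.27, -0.50, 0.57, 0.36 and 0.51 in DEN/TAA rats 1 to 5 and differed by 0.45 (SE 0.27, limma adjusted p = 0.18). In Sdhc, DEN/TAA rat 2 and control rat 1 were the lowest of their groups, and the groups overlapped. The 2 anchors thus had values of opposite sign, of which only that of Sdhd passed, and the sign of Sdhd turned (0.21) with spike-in scaling. Sdhd missed the threshold without control rat 3 or DEN/TAA rat 2 (adjusted p = 0.0656 and 0.0685).

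In complex III, the cytochrome bc1 complex, 0 of 7 tested genes passed, whether core proteins, the Rieske protein or small accessory subunits. The core proteins Uqcrc1 and Uqcrc2 differed by -0.12 and 0.02. Uqcrfs1, the Rieske iron-sulfur protein, had the lowest value at -0.34 (SE 0.17, limma adjusted p = 0.106). The accessory subunits Uqcrh, Uqcrb, Uqcr11 and Uqcr10 differed by -0.20, -0.04, -0.02 and -0.00. The 3 probes of Uqcrb disagreed, at -0.04, 0.11 and -0.66, and the third passed when each probe was tested on its own (limma adjusted p = 0.0150) while it was above background on 3 of 5 control arrays. Under the scalings complex III moved with the rest, with 4 genes lower when centred on the median gene and 4 higher with spike-ins.

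Set against complex I within the same rats, complex III was displaced. The mean over complex I genes minus the mean over complex III genes was -0.02, -0.08, -0.07, -0.22 and -0.10 in control rats 1 to 5 and -0.36, -0.26, -0.29, -0.37 and -0.39 in DEN/TAA rats 1 to 5. The groups did not overlap, and this difference within an array is the same whatever single number is added to the array. Complex III minus complex V also did not overlap, with -1.02 to -0.86 in control and -0.84 to -0.74 in DEN/TAA rats, and the other 8 of the 10 pairs of complexes did. These differences mix probes of unlike brightness, so the shift between groups can be read and the level cannot. The median of complex I minus that of complex III was -0.24, and it was between -0.27 and -0.15 over 26 settings. These include the fit used here and some that cannot change this value, such as centring on the spike-ins or on the median gene.

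**Figure D4:**
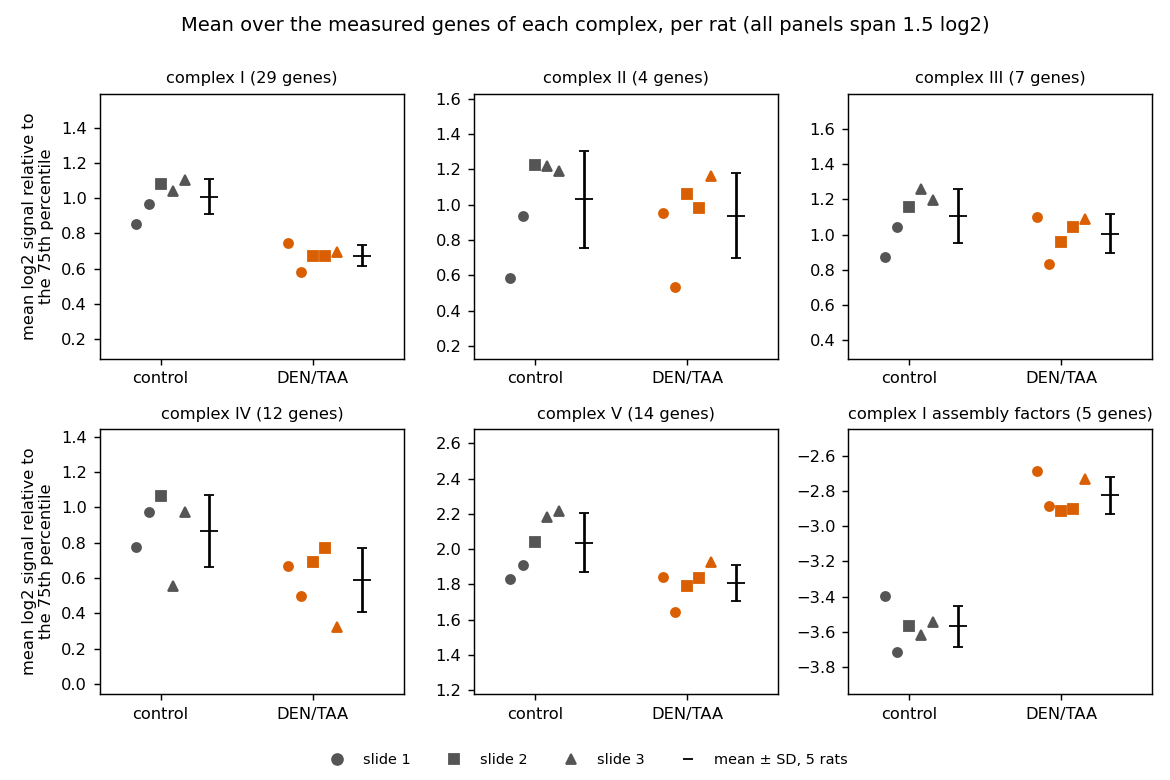
Mean level over the tested genes of each complex (log2 signal relative to the 75th percentile) in each rat, with mean ± SD beside each group and marker shape giving the slide; each panel spans 1.5 log2 units. On this scale complex I and its 5 factors named Ndufaf separate the groups in opposite directions (1.01 against 0.67 and -3.57 against -2.82, means of 5 rats). Complexes II to V overlap on it. Relative to the median gene of each array, not shown, only complex II overlaps. The gap of the factors depends in part on how the background is treated.

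Complex IV, cytochrome c oxidase, has subunits that come in tissue forms; whether the forms of a subunit changed unequally was not tested. Cox4i2, the form of subunit 4 best known from lung, was at -1.52, -0.94, -1.78, -2.42 and -1.17 in control rats 1 to 5 and -2.55, -1.99, -2.75, -3.00 and -3.36 in DEN/TAA rats 1 to 5. Control rat 4 lay below DEN/TAA rat 2, and the other control rats were above all DEN/TAA rats. The difference was -1.16 (SE 0.31, limma adjusted p = 0.00747), 2.24-fold lower, and -0.51 with spike-in scaling (adjusted p = 0.127). Cox4i1, the common form, was at 0.95, 0.22, 0.48, -0.41 and -0.79 in control rats 1 to 5 and -0.57, -0.60, 0.07, 0.18 and -1.14 in DEN/TAA rats 1 to 5, a wide spread in both groups, and differed by -0.50 (SE 0.35, limma adjusted p = 0.24). With slide as a block Cox4i1 was called lower, at -0.76 (limma adjusted p = 0.0108).

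Ndufa4, first described in complex I, was at 1.99, 2.63, 2.33, 2.56 and 3.07 in control rats 1 to 5 and 1.91, 1.97, 1.91, 2.01 and 2.22 in DEN/TAA rats 1 to 5. Control rat 1 lay within the DEN/TAA range and the other control rats above it. The difference was -0.51 (SE 0.19, limma adjusted p = 0.0414). It was the call that slide as a block ended (adjusted p = 0.0528), and it was called in 3 of the 10 fits without 1 rat (without control rats 1 or 3 or DEN/TAA rat 5, and otherwise with 0.0710 to 0.0844). Its sign turned (0.15) with spike-in scaling. The other common subunits did not pass: Cox6a1, Cox7a2 and Cox8a, the forms used in liver, differed by -0.11, -0.16 and -0.25. The muscle form Cox6a2 was dim, above background on 3 of 5 control arrays, and differed by 0.20 (SE 0.50, limma adjusted p = 0.757), while the heart form Cox8b was above background on 0 arrays. Beside it, 2 of 10 muscle markers were bright enough to test and 0 were called.

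In complex V, the 3 called genes encode parts of the membrane-bound Fo sector, but this held on the scale used here and not when centred on the median gene. There 8 of the 14 were lower, among them Atp5f1d (-0.68, limma adjusted p = 0.00749) and Atp5f1e (-0.74, limma adjusted p = 0.00419) of the F1 sector. Atp5mc1 and Atp5mc2 encode the same mature c subunit, the ring that turns as protons pass, behind different import signals. Atp5mc1 was at 2.43, 2.10, 2.20, 2.02 and 2.44 in control rats 1 to 5 and 1.77, 1.92, 1.70, 1.73 and 1.37 in DEN/TAA rats 1 to 5. Atp5mc2 was at 3.39, 3.10, 3.18, 2.91 and 3.27 in control rats 1 to 5 and 2.81, 2.87, 2.81, 2.70 and 2.53 in DEN/TAA rats 1 to 5. In both genes the 5 DEN/TAA rats lay below the 5 control rats, by a small gap. The differences were -0.54 (SE 0.15, limma adjusted p = 0.0111) and -0.43 (SE 0.14, limma adjusted p = 0.0239), and the second probe of Atp5mc2 gave -0.53. Both turned in sign with spike-in scaling, to 0.12 and 0.23, and Atp5mc2 missed the threshold without DEN/TAA rat 4 or 5 (adjusted p = 0.0527 and 0.0507).

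Atp5me, the small subunit e at which synthase dimers form, was at 3.36, 3.88, 3.94, 3.69 and 3.86 in control rats 1 to 5 and 3.32, 3.24, 3.44, 3.36 and 3.29 in DEN/TAA rats 1 to 5. Control rat 1 lay among the DEN/TAA rats and the other control rats above all of them. The difference was -0.42 (SE 0.15, limma adjusted p = 0.0303), 0.24 with spike-in scaling, and it was called without control rats 1 or 4 or DEN/TAA rat 3 but not in the 7 other such fits (adjusted p between 0.0505 and 0.0709). The F1 sector, which makes ATP, had 0 of 5 genes called on the scale used here, and the stalk that holds it still 0 of 4. The 11 genes of complex V that did not pass ran from -0.43 to 0.14.

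A few genes were high or low in rats on slide 3, for Atp5f1a and Ndufs1 not in all of them. Atp5f1a and Atp5f1b, the alpha and catalytic beta subunits of F1, differed by -0.32 (SE 0.30, limma adjusted p = 0.394) and -0.43 (SE 0.32, limma adjusted p = 0.273). Atp5f1b was at 0.48, 0.01, 0.49, 1.59 and 0.66 in control rats 1 to 5 and 0.10, -0.40, 0.02, 0.27 and 1.09 in DEN/TAA rats 1 to 5. Its highest values were control rat 4 and DEN/TAA rat 5, both on slide 3. Control rat 5, on the same slide, was next. Atp5f1a was also highest in those rats, at 0.94 and 0.32, but control rat 5 was at -0.51, the second lowest of its group. Ndufs1, the largest iron-sulfur subunit of complex I, was highest in the same rats, at -2.85 and -2.79, and lowest in control rat 5. Cox4i1 was at -0.41, -0.79 and -1.14 on the slide 3 arrays, and DEN/TAA rats 1 and 2 on slide 1 were also below 0. Within slides 1, 2 and 3 the difference of Atp5f1b was -0.39, -0.34 and -0.03. With slide as a block the counts over the members were 6 higher and 16 lower, with Cox4i1 joining the lower and Ndufa4 leaving them. The mean difference of complex I was -0.25, -0.41 and -0.37 within slides 1, 2 and 3.

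**Figure D5:**
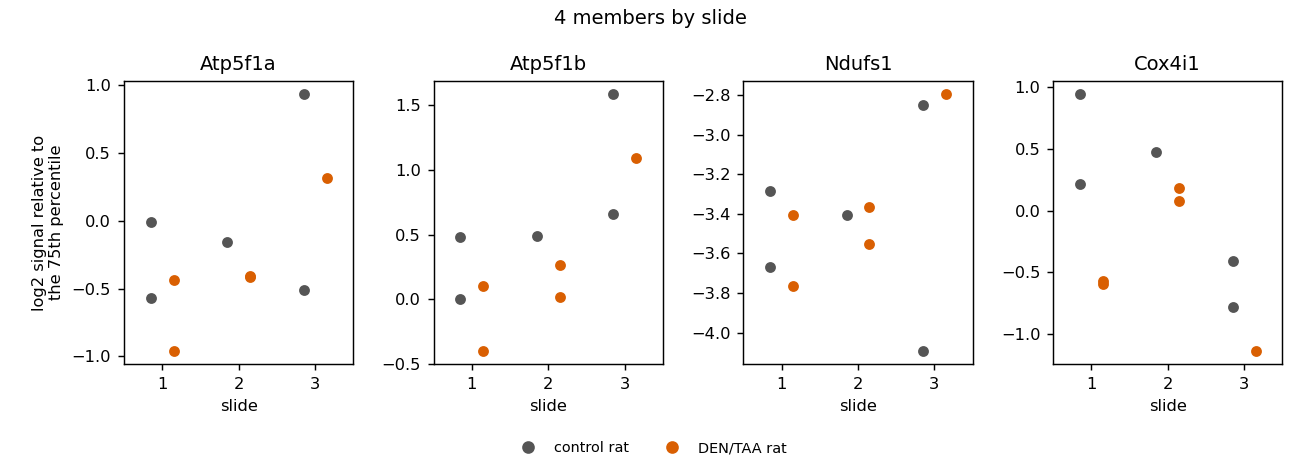
Level (log2 signal relative to the 75th percentile) of Atp5f1a, Atp5f1b, Ndufs1 and Cox4i1 in each rat by slide, control in grey and DEN/TAA in orange. On slide 3, control rat 4 and DEN/TAA rat 5 are the highest for Atp5f1a, Atp5f1b and Ndufs1, and all slide 3 rats are below 0 for Cox4i1.

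Genes that supply or build the chain were described from lists of the same pathway, each value being a log2 difference. The counts of each list can be read against the 39.2% of all genes called higher and the 16.3% called lower, and, when centred on the median gene, against 22.0% and 26.8%. In the citric acid cycle and pyruvate dehydrogenase, 5 of 16 were higher and 2 lower, with a median of -0.01, but 1 higher and 6 lower when centred on the median gene. Idh3a, of the NAD-linked isocitrate dehydrogenase, rose by 1.64 (SE 0.22, limma adjusted p = 7.47e-05) and citrate synthase Cs by 0.57 (SE 0.16, limma adjusted p = 0.0104). Suclg2, of succinyl-CoA ligase, was lower at -0.95 (SE 0.16, limma adjusted p = 4.46e-04) and fumarase Fh at -0.56 (SE 0.17, limma adjusted p = 0.0138), the latter at 0.10 with spike-in scaling.

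Ubiquinone synthesis and the electron transfer flavoprotein, which brings electrons from fatty acid oxidation, had 1 of 15 higher and 5 lower (median -0.04), and 0 and 7 when centred on the median gene. Coq8a, needed to make ubiquinone, fell the most at -2.22 (SE 0.23, limma adjusted p = 1.56e-05), and Etfb, a subunit of the flavoprotein, differed by -1.40 (SE 0.16, limma adjusted p = 3.09e-05). Both were called lower in all 7 scalings. Coq10b, a ubiquinone-binding protein, differed by 0.62 (SE 0.22, limma adjusted p = 0.0302).

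Other assembly factors of the chain, 1 of them also a member, had 5 of 29 higher and 3 lower (median 0.04), but 1 higher and 9 lower when centred on the median gene and 3 and 7 with the percentile over all probes. Cox17, a copper chaperone of complex IV, was higher at 1.04 (SE 0.17, limma adjusted p = 2.78e-04) and in all 7 scalings, and Coa5, also of complex IV, at 0.79 (SE 0.16, limma adjusted p = 0.00186), though at -0.48 with normexp. Fmc1, an assembly factor of ATP synthase, was lower at -1.06 (SE 0.15, limma adjusted p = 1.25e-04), and Higd2a at -0.65 (SE 0.20, limma adjusted p = 0.0169), where spike-in scaling gave 0.01. Among those that act on complex I, Acad9 was higher at 1.01 (SE 0.25, limma adjusted p = 0.00474). Timmdc1 was lower at -0.62 (SE 0.23, limma adjusted p = 0.0398), with 0.04 under spike-in scaling. Ecsit, Tmem126b and Nubpl did not pass, at -0.06, -0.06 and 0.36. The assembly machinery of the chain thus had calls in both directions.

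Lists of mitochondrial upkeep had more genes higher than lower on the scale used here. Protein import and structure had 13 of 21 higher and 0 lower (median 0.51), but 6 higher and 3 lower when centred on the median gene. The lowest adjusted p were those of the chaperonin Hspd1 at 1.04 (SE 0.14, limma adjusted p = 1.03e-04) and the import receptor Tomm20 at 1.002 (SE 0.14, limma adjusted p = 1.14e-04), while the largest difference was 1.75, that of the fission protein Dnm1l (SE 0.47, limma adjusted p = 0.00767). Biogenesis and mitochondrial DNA upkeep had 6 of 13 higher and 2 lower (median 0.49), a share higher near that of all genes, and 2 higher and 3 lower when centred on the median gene. Tfb1m and the coactivator Pprc1 differed by 1.24 (SE 0.17, limma adjusted p = 9.04e-05) and 1.22 (SE 0.26, limma adjusted p = 0.00186), with -0.11 for Tfb1m under normexp. The DNA polymerase subunits Polg2 and Polg were lower at -1.06 (SE 0.22, limma adjusted p = 0.00152) and -0.81 (SE 0.27, limma adjusted p = 0.0238).

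ATP exchange and uncoupling had 3 of 7 higher and 1 lower (median 0.33), and 2 and 2 when centred on the median gene. Slc25a4, the adenine nucleotide carrier best known from heart and muscle, differed by 4.72 (SE 0.22, limma adjusted p = 5.52e-08), above background on 4 of 5 control arrays and called in all 7 scalings. Ucp2, uncoupling protein 2, was above background on no control array, so it passed the filter through the DEN/TAA rats alone. Its higher value (limma adjusted p = 0.00224) is partly set by that filter, and the difference was -0.04 with normexp. Against a floor in the control arrays its DEN/TAA mean was 1.86-fold higher, which also depends on the background step. That floor is, in each control array, its own signal or, where that is lower, the dimmest probe that still counted as above background. Ppa2, the mitochondrial pyrophosphatase, was lower at -0.88 (SE 0.21, limma adjusted p = 0.00384).

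Of the 74 tested members, 40 have a RefSeq gene or pseudogene of nearly the same name, 11 of the 21 called ones among them (Atp5if1, Ndufaf4, Cycs, Ndufv3, Ndufa2, Ndufa1, Ndufv2, Ndufa4, Sdhd, Atp5mc1 and Atp5mc2). A probe may read such copies too, which was not tested, since the scanner files hold no probe sequences. Copies under other names were not counted, so probes of members outside these 40 may read copies as well.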

How the data were processed

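The submitters deposited 1 scanner file per rat, holding spot intensity from Agilent Feature Extraction, version 11.5.1.1 in the file headers and 15.5 in the submitters' processing notes. The processed signal intensity is background-subtracted per the file headers and not scaled between arrays; 150 ng of RNA was labelled per array, and the number of arrays limits the precision. A second deposited table holds the authors' log2 values, which follow the rank of each array's median spot intensity with column medians of 8.59. The ranks are those of signal without background subtraction. The equal medians go with quantile normalisation or with another scaling to a common median, and other quantiles were not compared. Which tool made them is not given in the sources used.

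Control and outlier-flagged spots were left out, spots of 1 probe averaged as log2, and the 75th percentile over the 6228 probes well above background on all 10 arrays subtracted. Probes above background on at least 5 arrays were kept, and a gene is its passing probe with the highest mean. Of 41012 probes, 17502 had 1 symbol, 0 several and 23510 none, through the design's accessions matched to RefSeq (GRCr8). limma 3.58.1 in R 4.3.3 (lmFit, eBayes, two-sided, Benjamini-Hochberg over all 6854 genes, threshold 0.05) compared 5 control with 5 DEN/TAA rats without covariates. The fit was tested on simulated data. Each array was taken as 1 rat, as the labels number them, so p-values measure the spread between these arrays.

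Members named in full are, per complex, up to 4 called in each direction by adjusted p, the complex II genes, Cycs, Atp5if1 and tissue isoforms, and per pathway list up to 2 in each direction. The values of 1 tested member are not reported here, though the counts include it. Others named with values were picked after these were seen. Members and lists were chosen with earlier results of these data known. The alternatives were other scalings, filters, probe rules, slide and replicate blocks, priors, array weights and leaving out rats. Normexp (offset 50) was run on the median instead of the mean spot signal.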

Additional observations from a re-analysis of the deposited data

Results flagged for a closer look

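The level of Sdhc in DEN/TAA rat 2 was -0.50 (log2 signal relative to the 75th percentile), far below the other 4 DEN/TAA rats, which lay between 0.27 and 0.57. Its gap to the nearest of them was 0.716 of the range of the group, above Dixon's critical value of 0.71 for 5 values. It was 1 of 58 groups examined, and chance alone gives about 1 in 20.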

How the results depend on the processing

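Counts of called members (5 higher, 16 lower) stayed within 1.5 times under the other choices except scaling: 25 were higher and 1 lower with spike-in scaling, 38 lower with the percentile over all probes and 48 lower with the median of the genes tested. Without 1 rat at a time 4 to 6 were higher and 11 to 21 lower. With the replicate number as a block 5 were higher and 13 lower, ending the calls of Atp5me, Cycs, Ndufa1 and Ndufv2. Same-numbered rats correlated at -0.22 to 0.20 (deviations from group means), over 0.1 in 3 of 5 pairs, so the numbers were not taken as pairs; 4 of the 10 rats correlated best with their own number.

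The median of each complex minus that of all genes moved most. For complex I it was -0.44 after quantile normalisation, -0.27 for the authors' table, 0.0515 with normexp, 0.21 without a filter, -0.39 with the filter on all 10 arrays and -0.49 within slide 1. For its assembly factors it was 0.28, 0.14, 0.23, 1.30, 0.70 and 0.60 in the same order, and 0.60 without the 2 dimmest control arrays, a choice made after seeing the data. For complex II it was -0.17 in the authors' table, 0.11 with normexp and 0.31 without a filter. For quantile normalisation, the authors' table, normexp, no filter and the filter on all 10 arrays, in that order, it was -0.19, -0.023, 0.32, 0.41 and -0.14 for complex III, -0.33, -0.16, 0.0521, 0.19 and -0.36 for complex IV, and -0.34, -0.20, 0.0234, 0.18 and -0.42 for complex V. Without 1 rat it ran from -0.67 to -0.59 for complex I, 0.42 to 0.53 for the assembly factors, -0.60 to -0.44 for II, -0.47 to -0.34 for III, -0.66 to -0.49 for IV and -0.67 to -0.57 for V. The cause was not tested.

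Of 573 values of the 23 named members over 25 settings, 476 kept direction and side of the threshold, 54 lost and 16 gained the call, and 27 turned in sign. With spike-in scaling Sdhd was at 0.21, Ndufa4 at 0.15, Atp5mc1 at 0.12, Atp5mc2 at 0.23, Atp5me at 0.24, Sdha at 0.59, Sdhb at 0.35, Cox4i1 at 0.16, Cox6a1 at 0.55, Cox7a2 at 0.50 and Cox8a at 0.41. Sdha was also at 0.0003 with slide as a block, 0.0677 after quantile normalisation, 0.17 for the authors' table and 0.0152 with normexp, and between -0.20 and 0.0451 without 1 rat. Cox6a1 was at 0.17 after quantile normalisation and 0.29 for the authors' table, and Cox8a at 0.0203 in the latter. Cox6a2 was at -0.16 with slide as a block, -0.11 with the percentile over all probes, -0.18 with the median of the genes tested, -0.70 with normexp, and between -0.26 and 0.45 without 1 rat. Ndufaf1 was at -0.051 with normexp. Dim genes depend most on the background step: members not above background on all arrays were Ndufs1, Ndufaf1, Ndufaf7 and Cox6a2. The plan's normexp on mean signals was not run, since median signals were used.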

Other observations

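Further genes that feed the chain, picked after their values were seen, are given here as differences (DEN/TAA minus control) with limma adjusted p. Etfdh, which passes electrons from the electron transfer flavoprotein to ubiquinone, was lower at -1.38 (SE 0.21, adjusted p = 2.03e-04), and Coq10a, a ubiquinone-binding protein, at -1.65 (SE 0.26, adjusted p = 2.33e-04), while Etfa, the partner of Etfb, was at 0.32 and did not pass. Esrra, a nuclear receptor that drives respiratory genes, was higher at 0.78 (SE 0.21, adjusted p = 0.00901), and Tfam, which packs mitochondrial DNA, at 0.47 (SE 0.17, adjusted p = 0.0355), although Tfam was called in 3 of the 7 scalings. Afg3l2, an inner membrane protease, was higher at 1.70 (SE 0.27, adjusted p = 3.20e-04).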
